A study of Mus musculus with 9 samples.

Results

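The collagen gene family was followed in whole mouse left lungs before and after transplantation. Its members were the protein-coding genes whose symbol has the form Col, type number, a, chain number in the authors' deposited tables, and this gave 44 of the 23944 genes listed. By textbook role they comprised 11 fibrillar chains, 6 chains of the basement membrane network, 3 chains of the basement membrane zone, 6 beaded filament chains, 9 fibril-associated chains, 3 hexagonal network chains, 4 transmembrane chains and 2 others. Collagens are the main structural proteins of the extracellular matrix, built from chains wound into a helix. Fibrillar collagens of types I, III and V form the cables that give airways, vessels and alveolar septa their strength, and fibroblasts are their main source in the lung. Type IV collagens form a sheet under epithelium and endothelium, in which the chains of Col4a1 and Col4a2 are widespread and those of Col4a3, Col4a4 and Col4a5 make a separate network known from the basement membranes of alveoli and kidney glomeruli.

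RNA was sequenced from 9 left lungs of adult wild-type mice. The 3 naive lungs were from C57BL/6 mice without a transplant. The 3 cold-ischemia grafts were C57BL/6 lungs that spent 24 h at 0 °C and were then reperfused for 2 h in Balb/C recipients. The 3 shock grafts had the same storage, recipient strain and reperfusion, and their C57BL/6 donors had first spent 4 h in hypovolemic shock at a mean arterial pressure of 15 ± 5 mmHg and then 20 h in recovery. All 6 grafts were therefore allografts, which recipient blood cells could enter. The comparisons ask what storage and transplantation do to collagen transcripts, and whether donor shock adds to it.

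Total counts ran from 18913487 to 34986276 per library, and all 10 alveolar epithelial markers had reads in each of the 9 libraries. The titles and the deposited tables disagree on the group of 2 grafts, cold-ischemia replicate 2 and shock replicate 3, each of which the tables place in the other graft group. Groups are those of the titles unless the tables are named. The labels number the lungs without naming animals, so p-values measure the spread between these samples, which may be technical. A record in another series is cited in the labels of each naive library and of no graft, so a batch effect and the effect of transplantation cannot be told apart. Nor can fewer cells of a type and less RNA per cell be told apart in whole-lung RNA. The 3 comparisons with naive lungs share the same naive samples.

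Levels of different genes were compared per length, by the FPKM values that the authors deposited (reads scaled to gene length and to library size). In naive lungs 5 of the 44 members averaged at least 100 FPKM, 17 at least 10 and 18 less than 1. The basement membrane pair led, with Col4a1 at 301 ± 118 FPKM and Col4a2 at 229 ± 71.3 FPKM (mean ± SD, n = 3). The fibrillar chains Col3a1, of type III collagen, and Col1a2 and Col1a1, of type I collagen, followed at 217 ± 129, 140.2 ± 49.4 and 102 ± 53.5 FPKM. The means of neighbours among these 5 genes differed by less than the spread between the naive lungs. Within each naive lung Col4a2 was below Col4a1, with ratios of 0.817, 0.806 and 0.705. Col1a2 was above Col1a1 in each, with ratios of 1.80, 1.42 and 1.21. Ratios within a lung are not given for the other neighbours. Col6a1 and Col6a2, chains of the beaded filaments of type VI collagen that link cells to the matrix, stood at 97.9 ± 23.7 and 69.9 ± 22.4 FPKM. Of the chains of the alveolar network, Col4a3 was at 51.2 ± 6.45, Col4a5 at 38.4 ± 13.7 and Col4a4 at 33.7 ± 7.22 FPKM, and Col4a6, their neighbour by gene order, was at 4.91 ± 0.487 FPKM. Most cartilage collagens were hardly detected, and Col2a1, Col9a1, Col9a2, Col10a1, Col11a1, Col19a1 and Col22a1 had too few reads for a test. The other 37 members passed the filter on low counts and were tested among 15834 genes.

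The 6 type IV genes lie in pairs that are read away from each other from a shared start region. On mm10 Col4a4 (chr1:82448423-82586849, minus strand) and Col4a3 (chr1:82586921-82722059, plus strand) start 72 bases apart, Col4a6 (chrX:141165403-141474076, minus strand) and Col4a5 (chrX:141475385-141689234, plus strand) start 1309 bases apart, and the annotated starts of Col4a1 (chr8:11198423-11312826, minus strand) and Col4a2 (chr8:11312805-11449287, plus strand) overlap by 22 bases. The whole stretch between the starts of Col4a4, called in all grafts below, and Col4a3 is shown, with the start regions of Col3a1 (gene at chr1:45311538-45349706, plus strand) and Col11a2 (gene at chr17:34039437-34066685, plus strand), which had the largest fall and the largest rise among tested fibrillar chains in the comparison of all grafts. Sequences are from RefSeq on GRCm38.p6, on the strand of the named gene, and end at the base before the RefSeq start. Capitals mark GGGCGG or its reverse complement CCGCCC, the binding motif of Sp1, and TATAAA, the TATA box.
Col4a4 to Col4a3, chr1:82586850-82586920, minus strand: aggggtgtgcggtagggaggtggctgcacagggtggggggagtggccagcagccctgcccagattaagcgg
Col3a1, chr1:45311288-45311537, plus strand: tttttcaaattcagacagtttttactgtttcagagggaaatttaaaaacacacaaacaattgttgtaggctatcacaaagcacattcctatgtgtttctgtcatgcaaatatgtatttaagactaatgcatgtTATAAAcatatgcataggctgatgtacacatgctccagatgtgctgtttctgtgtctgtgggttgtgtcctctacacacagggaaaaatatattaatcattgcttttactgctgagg
Col11a2, chr17:34038888-34039137, plus strand: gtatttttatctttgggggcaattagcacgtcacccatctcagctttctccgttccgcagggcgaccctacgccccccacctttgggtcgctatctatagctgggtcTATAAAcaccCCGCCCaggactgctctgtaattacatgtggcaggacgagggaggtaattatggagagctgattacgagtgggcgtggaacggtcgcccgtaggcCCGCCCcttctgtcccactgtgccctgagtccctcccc
Promoter windows were matched for 31 of the 44 members, each with 250 bases before the start and 50 after it. Only members that passed a filter on low counts were looked up, whereas the 27025 genes set beside them were not so filtered. Motifs were searched in the 250 bases before the start alone. On either strand GGGCGG occurred in 19 of the 31 (61.3%) and in 35.4% of 27025 genes with a window, and TATAAA in 5 (16.1%) and in 14.3%. The CCAAT box occurred in 11 (35.5%) and in 37.5%, the AP-1 motif TGANTCA in 1 (3.23%) and in 7.82%, and the NF-κB motif GGGANTTCC in 0 of the 31 and in 1.63%. None of these motifs lies in the 71 bases between Col4a4 and Col4a3. A match describes these letters only.

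Of the interstitial fibrillar chains, Col3a1, Col1a1, Col1a2 and Col5a2 fell in shock grafts, and Col5a1 and Col5a3 did not pass. None of the 6 was called in cold-ischemia grafts. The levels that follow are CPM, counts scaled to TMM-adjusted library sizes, and differences are log2 fold changes ± standard error from edgeR's quasi-likelihood test over all genes, called at a Benjamini-Hochberg adjusted p under 0.05. Col3a1, whose type III collagen mixes with type I in distensible tissue, had 471, 935 and 1750.0 CPM in naive replicates 1, 2 and 3, 385, 609.9 and 625 CPM in the cold-ischemia replicates and 171, 32.1 and 235 CPM in the shock replicates. All 3 shock grafts lay below all naive lungs and all cold-ischemia grafts, with shock replicate 2 lowest, while cold-ischemia grafts overlapped the naive range. Col3a1 fell in shock grafts (-2.85 ± 0.65, adjusted p = 0.0058), to a level 7.20-fold lower, and in the comparison of all grafts (-1.90 ± 0.51, adjusted p = 0.012), to a level 3.74-fold lower. In cold-ischemia grafts it was at -0.96 ± 0.61, adjusted p = 0.27. The call in all grafts was lost without naive replicate 3 (-1.32, adjusted p = 0.085) and with the tables' grouping (-1.65, adjusted p = 0.065).

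The type I chains, too, were called in shock grafts but not in cold-ischemia grafts. Col1a1 had 257, 491 and 828 CPM in naive lungs, 409.9, 571 and 535 CPM in cold-ischemia grafts and 221, 85.7 and 262 CPM in shock grafts. Col1a2 had 417, 629 and 903, 528, 567 and 613 and 252, 94.2 and 424 CPM in the same order. For both genes each shock graft was below each cold-ischemia graft, shock replicate 2 was the lowest library and naive replicate 3 the highest, and shock grafts overlapped the naive range, at naive replicate 1. In shock grafts Col1a1 fell (-1.47 ± 0.45, adjusted p = 0.023) and so did Col1a2 (-1.34 ± 0.44, adjusted p = 0.034), whereas in cold-ischemia grafts they were at -0.06 ± 0.44, adjusted p = 0.94 and -0.19 ± 0.44, adjusted p = 0.78. The call of Col1a1 was lost without naive replicate 3 (-0.98, adjusted p = 0.10) and without shock replicate 2 (-1.12, adjusted p = 0.0502). That of Col1a2 was lost with only the groups compared in the fit (-1.35, adjusted p = 0.066) and without naive replicate 2, naive replicate 3 or shock replicate 1 (-1.36, adjusted p = 0.070, -1.03, adjusted p = 0.12, and -1.32, adjusted p = 0.081). In all grafts neither was called (-0.76 ± 0.37, adjusted p = 0.12 and -0.77 ± 0.37, adjusted p = 0.12), but Col1a1 passed without naive replicate 1 (-1.10, adjusted p = 0.037) and Col1a2 without shock replicate 3 (-1.05, adjusted p = 0.019).

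Type V collagen chains are built into type I fibrils and set their diameter. Col5a2 had 87.7, 135 and 206 CPM in naive lungs, 124, 180.0 and 149.9 CPM in cold-ischemia grafts and 87.5, 50.9 and 85.0 CPM in shock grafts. Its shock grafts all lay below the other 6 libraries, by a margin of less than 1 CPM between shock replicate 1 and naive replicate 1. Col5a2 fell in shock grafts (-0.94 ± 0.30, adjusted p = 0.030), a call that was lost without naive replicate 2 (-0.98, adjusted p = 0.061), without naive replicate 3 (-0.58, adjusted p = 0.13) and without shock replicate 2 (-0.73, adjusted p = 0.089). With the tables' grouping it was at -0.43, adjusted p = 0.43, and at -0.10, adjusted p = 0.85 when shock replicate 2 was left out as well. Col5a1 had 61.1, 87.2 and 166 CPM in naive lungs, 84.1, 116 and 101 CPM in cold-ischemia grafts and 74.2, 51.3 and 70.6 CPM in shock grafts, and with overlap of shock grafts and naive lungs it did not pass (-0.68 ± 0.31, adjusted p = 0.11 in shock grafts). Without naive replicate 1 it passed (-0.97, adjusted p = 0.024). Col5a3, a minor type V chain, had 2.89, 4.30 and 12.5 CPM in naive lungs, 3.40, 10.3 and 5.96 CPM in cold-ischemia grafts and 4.94, 1.35 and 3.21 CPM in shock grafts. Its groups overlapped, and no comparison with naive lungs called it (shock grafts -1.05 ± 0.61, adjusted p = 0.19).

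**Figure D1:**
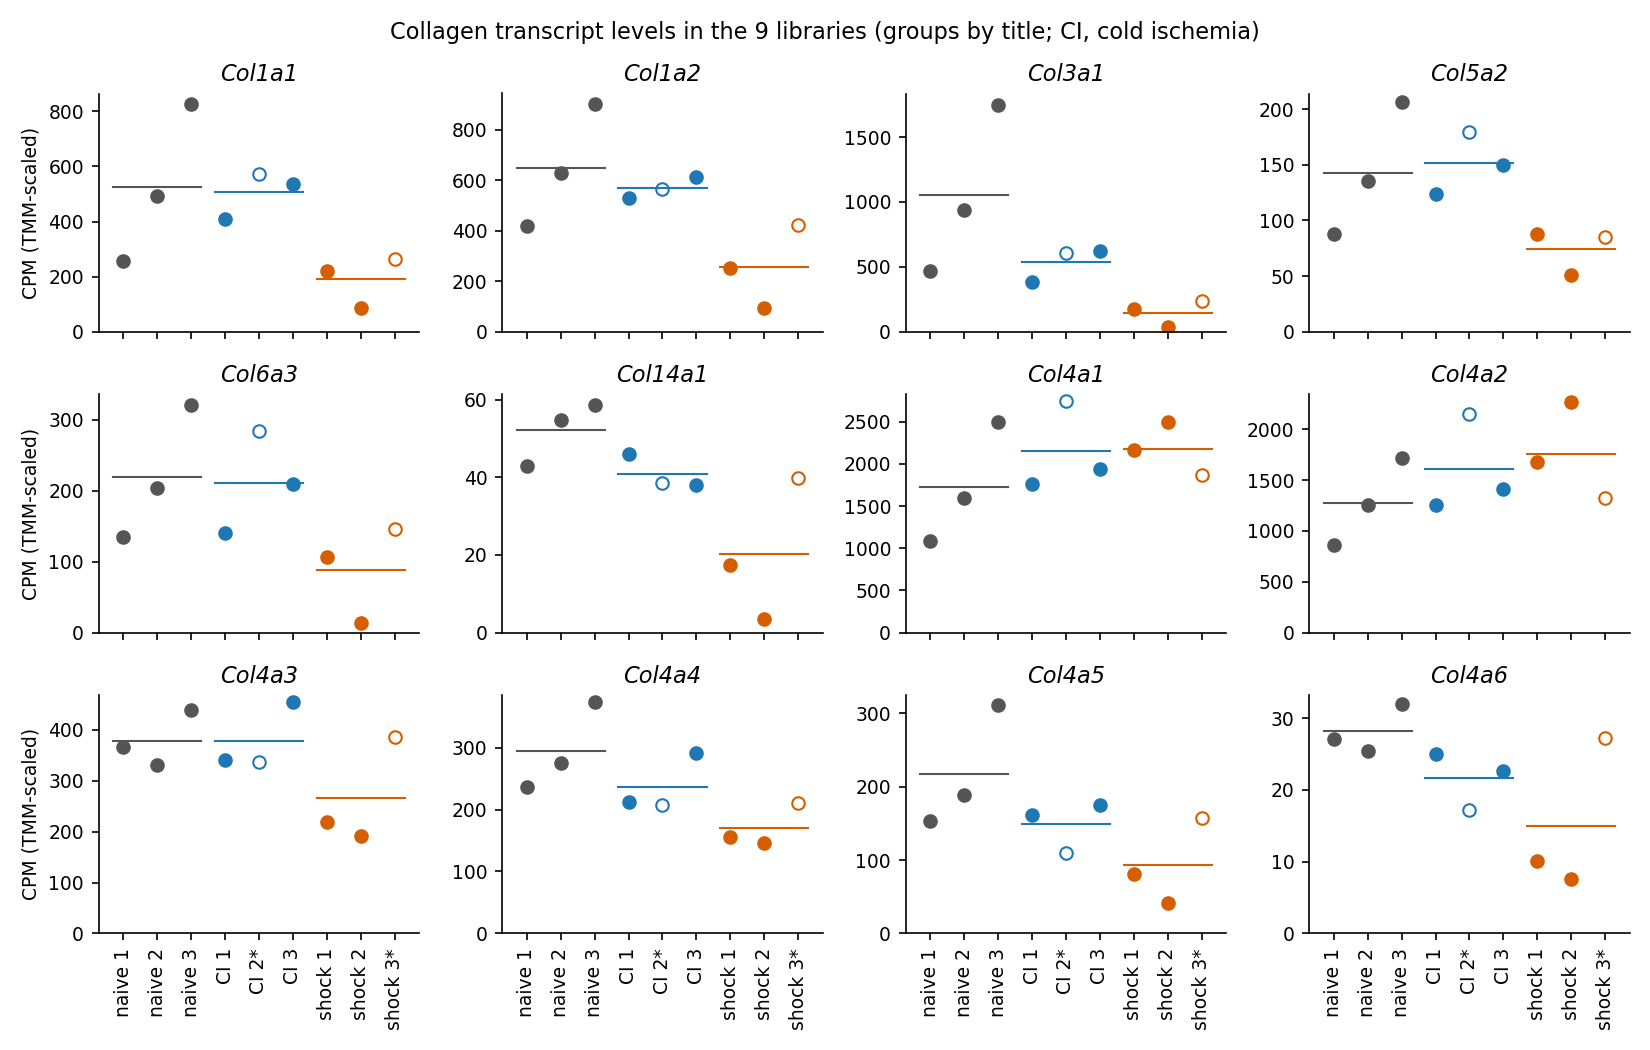
Levels of 12 collagen genes in each of the 9 libraries, in CPM on TMM-scaled library sizes; each point is 1 library, each line the mean of its group by title, CI is cold ischemia, and open points, whose names carry an asterisk, are the 2 grafts that the deposited tables place in the other graft group. Shock replicate 2 is the lowest library for Col1a1, Col1a2, Col3a1, Col5a2, Col6a3 and Col14a1, and Col4a1 and Col4a2 overlap between all groups.

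The major basement membrane chains Col4a1 and Col4a2 did not share in this. Col4a1 had 1085, 1598 and 2501 CPM in naive lungs, 1759.6, 2741 and 1945 CPM in cold-ischemia grafts and 2166, 2499 and 1870.0 CPM in shock grafts. Col4a2 had 864, 1255 and 1718, 1257, 2154 and 1411 and 1675, 2273 and 1323 CPM in the same order. The groups overlapped for both genes, and shock replicate 2, the lowest library for the type I and III chains, was among the 3 highest for Col4a1 and the highest for Col4a2. Neither gene passed in all grafts (Col4a1 0.32 ± 0.25, adjusted p = 0.33; Col4a2 0.39 ± 0.26, adjusted p = 0.25).

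The minor type IV chains were lower in part of the grafts. Col4a4 had 237, 275 and 373 CPM in naive lungs, 212, 207 and 291 CPM in cold-ischemia grafts and 155, 146 and 211 CPM in shock grafts. The 3 shock grafts lay below all naive lungs, and cold-ischemia replicate 3 lay within the naive range. Col4a4 fell in all grafts (-0.55 ± 0.18, adjusted p = 0.033) and in shock grafts (-0.79 ± 0.22, adjusted p = 0.015). Its call in all grafts was lost when any of 6 libraries was left out, with values from -0.35 (adjusted p = 0.19, without naive replicate 3) to -0.60 (adjusted p = 0.067, without naive replicate 2); the other 4 were cold-ischemia replicates 1 and 2 and shock replicates 1 and 2. Its call in shock grafts was lost without naive replicate 3 (-0.58, adjusted p = 0.063) and without shock replicate 1 (-0.72, adjusted p = 0.0519). Col4a5 had 153, 189 and 311 CPM in naive lungs, 162, 109.4 and 175 CPM in cold-ischemia grafts and 81.1, 41.8 and 157 CPM in shock grafts. Shock replicates 1 and 2 and cold-ischemia replicate 2 lay below the naive range, the other grafts within it, and Col4a5 fell in shock grafts (-1.22 ± 0.42, adjusted p = 0.041). That call was lost without naive replicate 2 (-1.31, adjusted p = 0.065), naive replicate 3 (-0.87, adjusted p = 0.15), shock replicate 1 (-1.13, adjusted p = 0.11), shock replicate 2 (-0.87, adjusted p = 0.085), cold-ischemia replicate 1 (-1.22, adjusted p = 0.0532) and cold-ischemia replicate 3 (-1.23, adjusted p = 0.0506), and with only the groups compared (-1.23, adjusted p = 0.067). In all grafts Col4a5 was at -0.89 ± 0.35, adjusted p = 0.065. It passed there in 9 of 19 settings. Among these were DESeq2 (-0.87, adjusted p = 0.033), no filter on low counts (-0.90, adjusted p = 0.028) and the replicate block (-0.93, adjusted p = 0.012). Others were the tables' grouping (-0.95, adjusted p = 0.015) and the fit without shock replicate 3 (-1.19, adjusted p = 0.0057).

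Col4a3 and Col4a6, the partners of Col4a4 and Col4a5 in their gene pairs, showed the same 2 shock grafts lowest. Col4a3 had 366, 331 and 439 CPM in naive lungs, 342, 336 and 455 CPM in cold-ischemia grafts and 219, 192 and 387 CPM in shock grafts. Col4a6 had 27.2, 25.5 and 32.0, 25.0, 17.2 and 22.7 and 10.1, 7.62 and 27.2 CPM in the same order. For both genes shock replicates 1 and 2 were the lowest of the 9 libraries, and shock replicate 3 lay within the naive range. Neither passed in shock grafts in the main fit (Col4a3 -0.51 ± 0.25, adjusted p = 0.14, and Col4a6 -0.91 ± 0.39, adjusted p = 0.084). Col4a6 passed there with DESeq2 (-0.89, adjusted p = 0.048) and with no filter on low counts (-0.93, adjusted p = 0.048). With the replicate block Col4a6 (-1.07, adjusted p = 0.027) and Col4a3 (-0.56, adjusted p = 0.031) passed. Without shock replicate 3, which the tables place among cold-ischemia grafts, both passed (Col4a3 -0.88, adjusted p = 0.0059; Col4a6 -1.67, adjusted p = 0.00031), and in all grafts they were then at -0.44, adjusted p = 0.040 and -1.03, adjusted p = 0.00075.

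Set against each other per length, the interstitial and the basement membrane chains stood in other proportions in grafts than in naive lungs. The summed FPKM of Col1a1, Col1a2 and Col3a1 was 243, 431 and 704 in naive lungs, 215, 295 and 306 in cold-ischemia grafts and 104, 34.6 and 155 in shock grafts. That of Col4a1 and Col4a2 was 352, 509.7 and 728, 419, 706 and 495 and 528, 668 and 456 in the same order. The ratio of the first sum to the second, in which library scaling cancels, was 0.691, 0.845 and 0.967 in naive lungs, 0.514, 0.417 and 0.619 in cold-ischemia grafts and 0.196, 0.0518 and 0.340 in shock grafts. By title the groups did not overlap in this ratio, with naive lungs highest and shock grafts lowest. By table the graft groups overlapped, at 0.196, 0.0518 and 0.417 in shock grafts and 0.514, 0.619 and 0.340 in cold-ischemia grafts. All 6 grafts were below the naive lungs, which the grouping of the grafts cannot change. Over all 11 fibrillar and 6 basement membrane chains it was 0.585, 0.752 and 0.864, 0.493, 0.433 and 0.570 and 0.220, 0.0706 and 0.332, again without overlap by title. These ratios are a description of chosen genes, with no test.

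Chains that occur in the same fibril or sheet did not all keep 1 proportion. The ratio of Col3a1 to Col1a1 by FPKM was 1.95, 2.03 and 2.25 in naive lungs, 1.00, 1.14 and 1.24 in cold-ischemia grafts and 0.822, 0.399 and 0.956 in shock grafts, so that every graft lay below every naive lung. The type I chains Col1a2 and Col1a1 had ratios of 1.80, 1.42 and 1.21, 1.43, 1.10 and 1.27 and 1.26, 1.22 and 1.79, with all groups overlapping. The ratio of Col4a2 to Col4a1 stayed between 0.704 and 0.933 in the 9 libraries. Against Col4a1 and Col4a2 the summed FPKM of Col4a3 to Col4a6 had ratios of 0.314, 0.226 and 0.218 in naive lungs, 0.194, 0.106 and 0.219 in cold-ischemia grafts and 0.0936, 0.0609 and 0.193 in shock grafts. The lowest 3 were shock replicates 1 and 2 and cold-ischemia replicate 2. These are the 3 libraries that the tables call shock grafts.

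**Figure D2:**
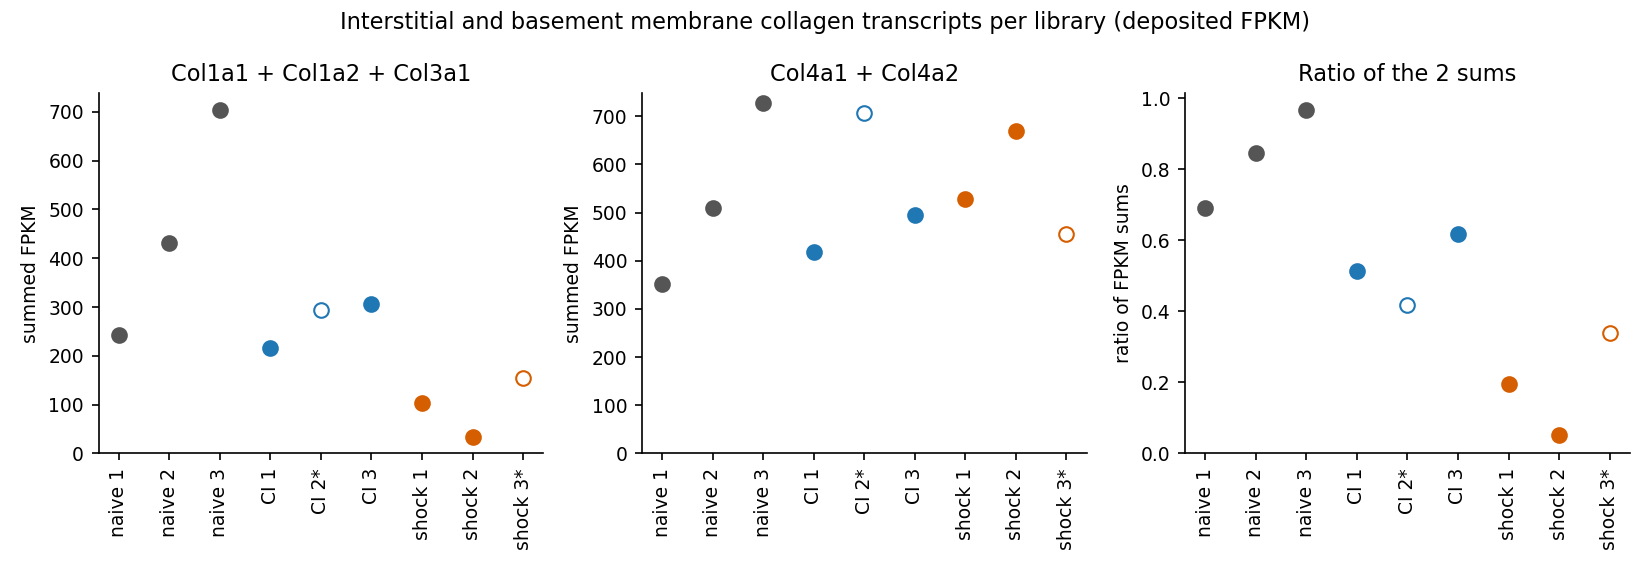
Summed deposited FPKM of Col1a1, Col1a2 and Col3a1, of Col4a1 and Col4a2, and the ratio of the first sum to the second, with 1 point per library and open points for the 2 grafts whose group is in doubt. The ratio runs from 0.691 to 0.967 in naive lungs, from 0.417 to 0.619 in cold-ischemia grafts and from 0.0518 to 0.340 in shock grafts, while the summed type IV pair overlaps between the groups.

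Col6a1, Col6a2 and Col6a3, the main chains of the type VI filament at the border of cells and interstitium, were lowest in shock replicate 2. Col6a3 had 135, 204 and 320.1 CPM in naive lungs, 139.9, 283 and 209.9 CPM in cold-ischemia grafts and 106, 13.6 and 146 CPM in shock grafts, and did not pass (-1.31 ± 0.64, adjusted p = 0.13 in shock grafts). Col6a2 had 194, 301 and 397, 197, 327 and 243 and 168, 78.5 and 170.0 CPM in the same order. The shock grafts of Col6a2 were all below the other 6 libraries, and it fell in shock grafts (-1.10 ± 0.33, adjusted p = 0.024). The call was lost without naive replicate 2 (-1.09, adjusted p = 0.059), without naive replicate 3 (-0.83, adjusted p = 0.094), without shock replicate 2 (-0.81, adjusted p = 0.0545) and with the tables' grouping (-0.64, adjusted p = 0.24). In all grafts it passed without naive replicate 1 (-0.90, adjusted p = 0.038) and with no filter on low counts (-0.67, adjusted p = 0.045). Col6a1 had 251, 359 and 432 CPM in naive lungs, 287, 440.3 and 369 CPM in cold-ischemia grafts and 313, 183 and 270.3 CPM in shock grafts, with overlap and no call (shock grafts -0.44 ± 0.25, adjusted p = 0.18). In shock replicate 2 the 3 chains were therefore unequal, with a ratio of Col6a3 to Col6a1 by FPKM of 0.0301 there and of 0.138 to 0.301 in the other 8 libraries. The chains Col6a4, Col6a5 and Col6a6 each averaged under 2 CPM in every group and were not called in the main comparisons by title (Col6a5 -1.56 ± 0.63, adjusted p = 0.071 in shock grafts). Col6a5 passed as lower in all grafts without cold-ischemia replicate 1 (-1.52, adjusted p = 0.0451) and without shock replicate 3 (-1.64, adjusted p = 0.021), and in shock grafts without cold-ischemia replicate 2 (-1.56, adjusted p = 0.041), without shock replicate 3 (-2.37, adjusted p = 0.021) and with only the groups compared (-1.57, adjusted p = 0.0486). With the replicate block Col6a5 passed as lower in all grafts and in shock grafts.

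Of the collagens at the outer face of basement membranes, Col18a1, the precursor of endostatin, had 72.1, 79.4 and 94.3 CPM in naive lungs, 87.7, 89.5 and 103 CPM in cold-ischemia grafts and 62.5, 49.6 and 88.0 CPM in shock grafts. Col15a1, a related chain, had 10.9, 18.2 and 26.7, 23.6, 14.1 and 17.5 and 9.54, 10.3 and 20.6 CPM in the same order. Groups overlapped and neither passed in any comparison with naive lungs (shock grafts -0.30 ± 0.20, adjusted p = 0.26 and -0.47 ± 0.37, adjusted p = 0.34), although Col18a1 passed in shock grafts without shock replicate 3 (-0.55, adjusted p = 0.027). Col7a1, the anchoring fibril chain of the same group, was not called either. Col14a1, which sits on the surface of fibrils, had 42.9, 54.9 and 58.6 CPM in naive lungs, 46.0, 38.6 and 38.1 CPM in cold-ischemia grafts and 17.3, 3.59 and 39.8 CPM in shock grafts. Its shock grafts were below all naive lungs and ranged from 3.59 to 39.8 CPM, and it did not pass (-1.36 ± 0.57, adjusted p = 0.082). Without shock replicate 2 it passed in shock grafts (-0.87, adjusted p = 0.0463), and without shock replicate 3 it passed there (-2.31, adjusted p = 0.0044) and in all grafts (-1.33, adjusted p = 0.012). With no filter on low counts Col14a1 also passed in shock grafts (-1.38, adjusted p = 0.038). Col13a1, a transmembrane collagen of cell contacts, had 70.1, 80.1 and 87.5 CPM in naive lungs, 64.4, 89.6 and 97.0 CPM in cold-ischemia grafts and 50.7, 23.9 and 67.8 CPM in shock grafts. Its shock grafts lay below all naive lungs without passing (-0.74 ± 0.31, adjusted p = 0.080). It passed without shock replicate 3 (-1.08, adjusted p = 0.014) and with no filter on low counts (-0.76, adjusted p = 0.047).

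A few sparse collagens went up in the grafts. Col11a2, a chain of the thin cartilage fibrils of type XI collagen, had 24, 21 and 56 reads in naive lungs, 90, 59 and 55 in cold-ischemia grafts and 44, 93 and 94 in shock grafts, or 0.687, 0.950 and 1.42, 4.08, 2.42 and 2.54 and 1.84, 4.63 and 4.25 CPM. Every graft exceeded every naive lung, and Col11a2 rose in all grafts (1.67 ± 0.38, adjusted p = 0.0054), 3.19-fold. The call in all grafts and in shock grafts held in all alternatives run. In cold-ischemia grafts (1.55 ± 0.42, adjusted p = 0.018) it was lost without naive replicate 1 (1.32, adjusted p = 0.072), naive replicate 2 (1.51, adjusted p = 0.061) or cold-ischemia replicate 1 (1.27, adjusted p = 0.074). Col28a1, a beaded-filament-like collagen known from nerve, had 1.26, 1.76 and 1.52 CPM in naive lungs, 3.63, 3.81 and 3.32 CPM in cold-ischemia grafts and 2.72, 1.05 and 2.58 CPM in shock grafts. The cold-ischemia grafts were all above the naive lungs, and shock replicate 2 was the lowest of the 9 libraries. It rose in cold-ischemia grafts (1.25 ± 0.35, adjusted p = 0.020) and in all grafts (0.87 ± 0.31, adjusted p = 0.045). Its call in all grafts was lost whichever of 8 libraries was left out, with adjusted p-values from 0.062 to 0.16, and was kept only without shock replicate 2. In cold-ischemia grafts the call was lost without naive replicates 1 or 3 (1.13, adjusted p = 0.080; 1.25, adjusted p = 0.058) and without cold-ischemia replicates 1 or 2 (1.24, adjusted p = 0.0543; 1.21, adjusted p = 0.058). Without shock replicate 2 it passed in shock grafts (0.81, adjusted p = 0.038).

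The remaining called members were chosen for mention after their values were seen. Col9a3, a chain of the cartilage collagen IX, had 8, 1 and 4 reads in naive lungs, 23, 28 and 14 in cold-ischemia grafts and 29, 19 and 29 in shock grafts. All grafts were above all naive lungs, and it rose in all grafts (2.95 ± 0.49, adjusted p = 0.00078), a call that held in all alternatives run. Of its annotated exon bases 234 (6.07%) overlap those of Tcfl5 on the opposite strand, and Tcfl5 itself averaged 0.00843 CPM in naive lungs and 0.0761 CPM in grafts; strandedness of the counts is not stated. Col26a1 had 19, 5 and 21 reads in naive lungs, 12, 11 and 5 in cold-ischemia grafts and 1, 1 and 2 in shock grafts, and fell in shock grafts (-2.78 ± 0.67, adjusted p = 0.0079), where the value rests on 4 reads, and in all grafts (-1.45 ± 0.49, adjusted p = 0.035). Its call in all grafts was lost without any 1 of naive replicates 1 and 3, cold-ischemia replicates 2 and 3, and shock replicates 1 and 2, at -1.28 to -1.49 and adjusted p-values from 0.053 to 0.13. It was also lost with DESeq2 (-1.46, adjusted p = 0.086), no filter on low counts (-1.46, adjusted p = 0.072), the replicate block (-1.41, adjusted p = 0.071) and the tables' grouping (-0.93, adjusted p = 0.28). The call in shock grafts was lost with the tables' grouping (-1.23, adjusted p = 0.24). Col20a1 had 1.77, 1.45 and 1.62 CPM in naive lungs, 1.86, 2.01 and 1.94 CPM in cold-ischemia grafts and 2.34, 2.79 and 3.07 CPM in shock grafts, with no overlap between the 3 groups. It rose in shock grafts (0.76 ± 0.25, adjusted p = 0.036), a call lost in 7 of the 9 runs that left out 1 library, at 0.66 to 0.81 and adjusted p-values from 0.051 to 0.12, and kept without cold-ischemia replicate 2 or shock replicate 1. It was also lost with only the groups compared (0.75, adjusted p = 0.063) and with the tables' grouping (0.55, adjusted p = 0.14). Of the annotated exon bases of Col20a1, 79 (1.54%) overlap those of BX649560.1 on the same strand. BX649560.1 averaged 4.66 CPM in naive lungs and 5.42 CPM in grafts, and the part of this overlap in the rise was not tested. Col10a1, the hypertrophic cartilage collagen, had 73 of its 123 reads in cold-ischemia replicate 1 and 30 in naive replicate 3, and the proteoglycan Acan, a cartilage marker, had 43 of 52 reads in cold-ischemia replicate 1.

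The tested members not yet described were not called in the main comparisons by title. Col12a1, a fibril-associated chain, had 74.8, 68.6 and 76.8 CPM in naive lungs, 90.6, 81.0 and 89.9 CPM in cold-ischemia grafts and 61.9, 74.3 and 91.2 CPM in shock grafts, with overlap (0.05 ± 0.15, adjusted p = 0.83 in shock grafts). Col16a1, of the same class, had 45.5, 65.8 and 66.9 CPM in naive lungs, 53.9, 58.0 and 62.0 CPM in cold-ischemia grafts and 32.6, 13.8 and 50.8 CPM in shock grafts, and its shock grafts were all below its cold-ischemia grafts (-0.87 ± 0.36, adjusted p = 0.076 in shock grafts). It passed in shock grafts with DESeq2 (-0.85, adjusted p = 0.0462), with no filter on low counts (-0.89, adjusted p = 0.040) and without shock replicate 3 (-1.35, adjusted p = 0.0072), and in all grafts without shock replicate 3 (-0.69, adjusted p = 0.039). Col23a1, a transmembrane chain, ranged from 110.2 to 125 CPM in naive lungs and from 71.4 to 128 CPM in grafts, with shock replicate 2 lowest. Col17a1, the hemidesmosomal collagen of epithelium, was lowest in the same library, at 1.05 CPM against 5.97 to 7.83 CPM in naive lungs. With library totals only, both passed in shock grafts (Col23a1 -0.56, adjusted p = 0.040; Col17a1 -1.28, adjusted p = 0.0454). Col8a1 and Col8a2, network collagens of vessels, stayed between 6.43 and 20.5 CPM and between 8.91 and 17.7 CPM in grafts and overlapped the naive range. Col24a1 and Col25a1 were under 1 CPM in every library.

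**Figure D3:**
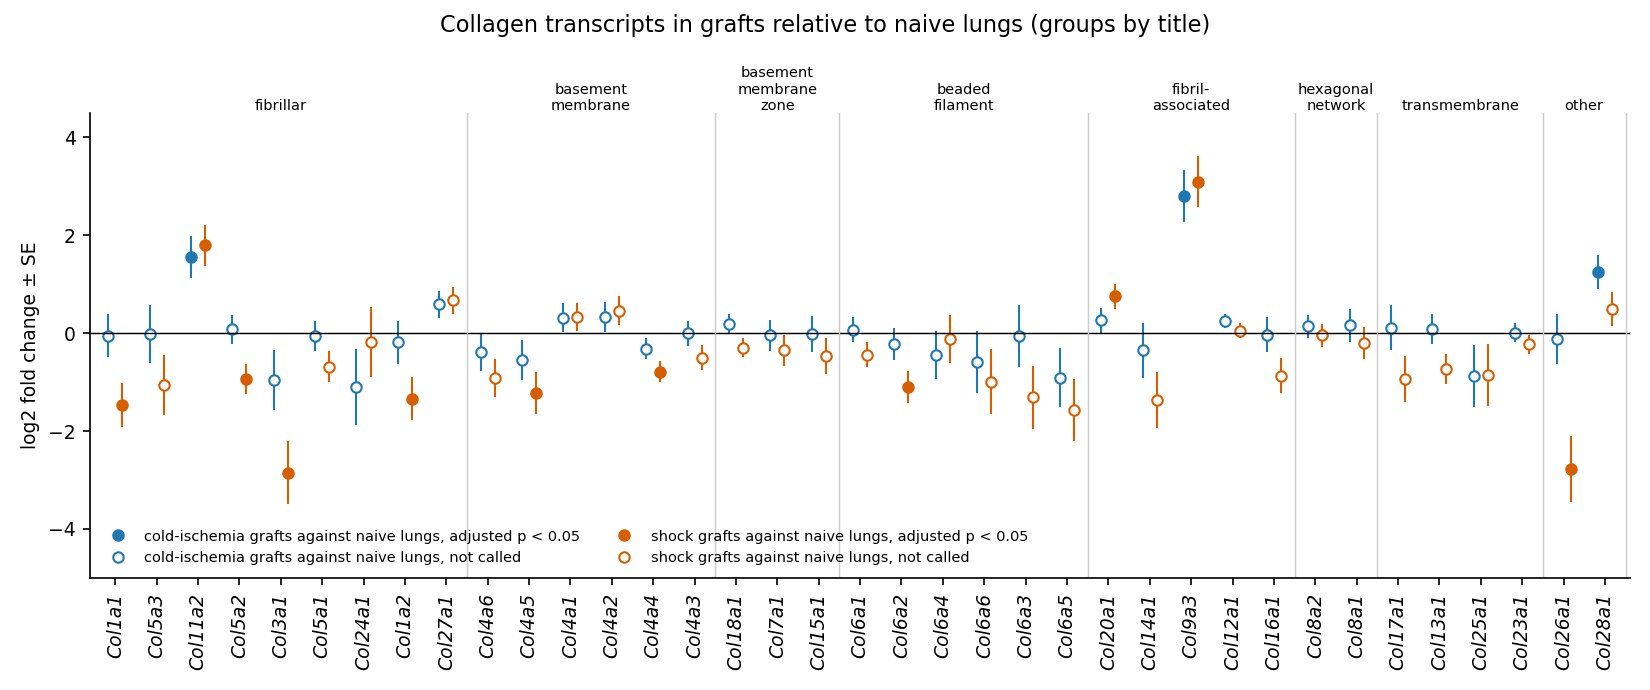
Log2 fold changes of the 37 tested collagen genes against naive lungs, with standard errors, for cold-ischemia grafts (blue) and shock grafts (orange), grouped by role. Filled points passed an adjusted p of 0.05; in shock grafts these are 8 genes below 0 and 3 above, and in cold-ischemia grafts 3 above.

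Over the family, calls were few in cold-ischemia grafts. In shock grafts 8 of 37 members were lower, a share near the 17.9% of all genes, and 3 were higher, a smaller share than the 22.0% of all genes. In all grafts 6 of the 37 tested members were called, 3 higher (Col9a3, Col11a2 and Col28a1) and 3 lower (Col3a1, Col26a1 and Col4a4), against 41.8% of all genes tested (22.1% higher, 19.7% lower). In cold-ischemia grafts 3 members were higher (Col9a3, Col11a2 and Col28a1) and 0 lower, against 17.5% and 13.1% of all genes (30.6% in either direction). There 3 members had an unadjusted p under 0.05 with edgeR, as did 6495 of the 15834 genes. With DESeq2 4 members did, as did 6574 genes, and it also called 0 members lower (14.4% of all genes). In shock grafts 3 were higher (Col9a3, Col11a2 and Col20a1) and 8 lower (Col3a1, Col1a1, Col1a2, Col5a2, Col4a4, Col4a5, Col6a2 and Col26a1), against 22.0% and 17.9% (39.9% in either direction). Whether these shares differ from those of all genes was not tested. The split moved with the scaling. In all grafts 2 were higher and 6 lower with upper-quartile scaling, where 2689 of the 15834 genes were higher and 5029 (31.8%) lower, and 2 and 12 with library totals only (14.6% and 39.6% of all genes). In shock grafts these were 2 and 15 (16.9% and 29.4%), and 2 and 19 (14.7% and 36.4%). In cold-ischemia grafts they were 3 and 0 (13.8% and 21.3%), and 2 and 1 (11.9% and 28.9%). With only the groups compared in the fit, 2 were higher and 6 lower in shock grafts, as were 3191 and 2653 of 15599 genes. The median of all genes in all grafts was -0.05 with TMM, -0.25 with upper-quartile scaling and -0.37 with library totals, against which the falls above are to be read. The median log2 fold change of the 37 members was -0.37 in all grafts, -0.02 in cold-ischemia grafts and -0.68 in shock grafts, where the medians of all genes tested were -0.05, -0.04 and -0.06. By class in shock grafts, the median was -0.94 over 9 fibrillar chains, -0.65 over 6 basement membrane chains and -1.04 over 6 beaded filament chains.

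Collagens varied widely between libraries, and for most of them shock replicate 2 was the lowest. The highest naive library exceeded the lowest 1.58-fold at the median tested collagen and 1.25-fold at the median gene, and among grafts these values were 3.57 and 1.78. Shock replicate 2 was the lowest of the 9 libraries for 22 of the 37 members (59.5%) and for 22.2% of all genes tested. Naive replicate 3 was the highest naive library for 26 of them (70.3%) and for 39.8% of all genes. Of the 37 members 3 had all grafts above all naive lungs (20.9% of all genes) and 0 had all grafts below (20.0% of all genes). The number of members called lower in all grafts was 0 without naive replicate 3 (14.9% of all genes in that fit), 1 without cold-ischemia replicate 2 (17.7%), 1 without shock replicate 1 (18.3%), 1 without shock replicate 2 (20.8%) and 10 without shock replicate 3 (21.6%). Without naive replicate 3, where edgeR called none of them lower, Col3a1, Col26a1 and Col4a4 had values of -1.32, adjusted p = 0.085, -1.28, adjusted p = 0.12 and -0.35, adjusted p = 0.19. The number called lower in shock grafts was 4 without naive replicate 2 (11.5% of all genes), 2 without naive replicate 3 (13.6%), 5 without shock replicate 1 (14.4%), 5 without shock replicate 2 (15.7%) and 15 without shock replicate 3 (19.2%). The number called higher in cold-ischemia grafts was 1 without naive replicate 1 (13.3% of all genes) and 1 without cold-ischemia replicate 1 (13.9%).

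Which collagens parted the graft groups depended on the grouping. By the titles, shock grafts were below cold-ischemia grafts without overlap for 9 of the 37 members (4.91% of all genes), namely Col1a1, Col1a2, Col3a1, Col5a1, Col5a2, Col6a2, Col16a1, Col26a1 and Col28a1, and above them for 1, Col20a1 (5.45% of all genes). By the tables, shock grafts were below for 7 (12.4% of all genes), namely Col4a3, Col4a4, Col4a5, Col4a6, Col6a5, Col12a1 and Col15a1, and above for Col4a1 and Col4a2 (10.9% of all genes). Col1a1, Col1a2, Col3a1, Col5a1 and Col5a2 were thus apart by title, and the 6 type IV chains by table, 4 of them lower and 2 higher. The test of the difference called 0 of 37 members under the titles (0.0% of all genes). There 9 members had an unadjusted p under 0.05 with edgeR, as did 1152 of the 15834 genes. With DESeq2 12 members did, as did 1252 genes, and it called 8 genes in all and 0 collagens. Under the tables edgeR again called 0 of 37 (0.783% of all genes). There 11 members had an unadjusted p under 0.05, as did 3075 genes. Col3a1 differed between the graft groups by -1.89 ± 0.63, adjusted p = 0.67 under the titles and by -0.61 ± 0.81, adjusted p = 0.71 under the tables. Col4a6 differed by -0.53 ± 0.39, adjusted p = 0.71 and by -1.10 ± 0.25, adjusted p = 0.074. With both graft libraries in doubt left out, which leaves 2 grafts per group, Col4a6 was the 1 collagen called between the groups (-1.43, adjusted p = 0.043). Among all genes 0.187% were called lower there and 0.056% higher.

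The comparison of shock grafts with naive lungs changed in the same way. Under the tables the lower members were Col4a3 (-0.60 ± 0.21, adjusted p = 0.038), Col4a4 (-0.80 ± 0.21, adjusted p = 0.0098), Col4a5 (-1.49 ± 0.33, adjusted p = 0.0042), Col4a6 (-1.27 ± 0.25, adjusted p = 0.0023), Col6a5 (-2.46 ± 0.40, adjusted p = 0.00071) and Col25a1 (-1.76 ± 0.53, adjusted p = 0.020), and the higher ones were Col4a2 (0.67 ± 0.23, adjusted p = 0.034), Col9a3 and Col11a2, against 22.3% and 23.8% of all genes (46.1% in either direction). Col6a5 is a further type VI chain and Col25a1 a transmembrane chain of neurons. Col4a4 and Col4a5 fell under both groupings. Col3a1 was at -1.96 ± 0.83, adjusted p = 0.076 there, Col1a1 at -0.84 ± 0.59, adjusted p = 0.27 and Col1a2 at -1.09 ± 0.51, adjusted p = 0.10, none of them called. With the tables' grouping and without shock replicate 2, Col4a4, Col4a5, Col4a6 and Col6a5 were still called lower, joined by Col14a1 (-0.90 ± 0.28, adjusted p = 0.025), while Col4a3 (-0.44 ± 0.20, adjusted p = 0.096), Col25a1 (-1.67 ± 0.63, adjusted p = 0.0519) and Col4a2 (0.58 ± 0.24, adjusted p = 0.068) were not. The rises in cold-ischemia grafts under the tables were Col9a3, Col11a2 and Col27a1, a fibrillar chain of cartilage (0.88 ± 0.21, adjusted p = 0.0082), against 19.3% of all genes higher and 34.8% in either direction. Col27a1 ran from 14.8 to 16.2 CPM in naive lungs and from 16.0 to 37.1 CPM in grafts, with 1 graft, shock replicate 2, within the naive range. By title it passed without shock replicate 2 in all grafts (0.75, adjusted p = 0.012) and in shock grafts (0.91, adjusted p = 0.014), and in cold-ischemia grafts without shock replicate 3 (0.59, adjusted p = 0.038). Under that grouping all grafts had 3 higher members (Col9a3, Col11a2 and Col27a1; 23.6% of all genes) and 4 lower ones (Col4a4, Col4a5, Col4a6 and Col6a5; 22.7%), with 46.4% of all genes called.

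The authors' own comparisons use the tables' grouping. In the authors' deposited table of grafts after shock against naive lungs, 3 collagens were higher (Col4a2, Col9a3 and Col11a2) and 5 lower (Col4a4, Col4a5, Col4a6, Col6a5 and Col25a1) of 41 with an adjusted p, against 20.7% and 16.6% of all genes (37.3% in either direction). In the authors' deposited table of cold-ischemia grafts against naive lungs, 5 were higher (Col9a3, Col11a2, Col12a1, Col27a1 and Col28a1) and 0 lower of 41, against 19.5% and 16.7% (36.2% in either direction). The authors' deposited table of the 2 graft groups gave Col4a2 as higher in shock grafts (log2 fold change 0.57, adjusted p = 0.026) and Col4a5 (-0.86, adjusted p = 0.025), Col4a6 (-0.88, adjusted p = 0.019) and Col15a1 (-0.74, adjusted p = 0.020) as lower. These were 1 and 3 of 34 collagens with an adjusted p in the authors' deposited table, against 1.13% and 1.97% of all genes (3.1% in either direction).

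**Figure D4:**
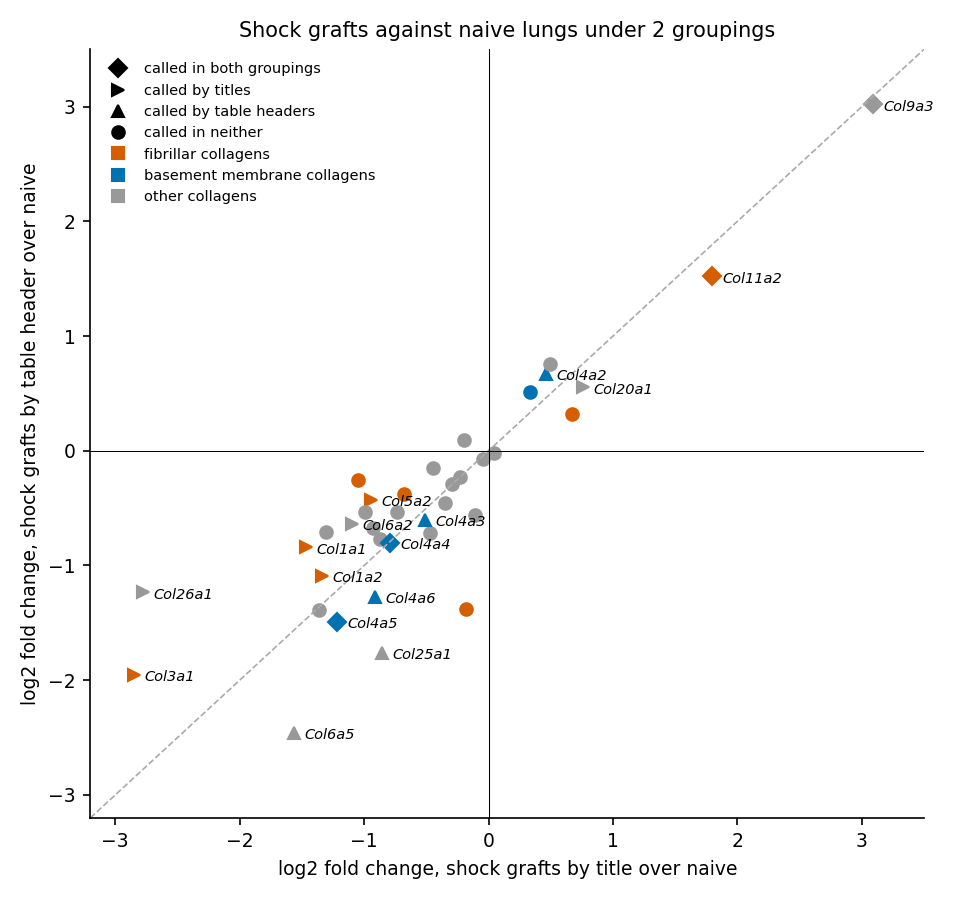
Log2 fold change of each tested collagen gene in shock grafts over naive lungs, with groups by title on the horizontal axis and by table header on the vertical axis; the dashed line marks equal values, colour gives the class and the symbol the grouping in which a gene was called. The 4 fibrillar chains called lower by title lie above the line, and Col4a3, Col4a6, Col6a5 and Col25a1, called lower only by table header, lie below it.

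Markers of matrix-making and other cells were lower in some of the same libraries. The summed CPM of 12 fibroblast markers was 3902, 4030.5 and 4297 in naive lungs, 3326, 2309 and 3602 in cold-ischemia grafts and 2111, 1875 and 4003 in shock grafts, and shock replicate 2 was the lowest library for 8 of the 12. In shock grafts 5 of the 12 fell (Cd248, Dpt, Mfap5, Npnt and Tcf21) and 0 rose, with a median of -0.94. Among all genes 17.9% fell and 22.0% rose there. Itga8, an integrin of alveolar fibroblasts, had 189, 24.0 and 363 CPM in the shock grafts and 306, 297 and 295 CPM in naive lungs, while Pdgfra, a receptor that defines lung fibroblasts, had 331, 519.6 and 485 and 373, 357 and 574 CPM, and the fibril-binding proteoglycan Dcn had 180.2, 188 and 194 and 175, 203 and 177 CPM. Itga8 was thus lowest in shock replicate 2, the library lowest in type I and III collagen and for 8 of the 12 fibroblast markers. Pdgfra, and Dcn, which is not among the 12, lay within or above the other shock grafts' levels there. Smooth muscle and pericyte markers, 12 in number, summed to 1368, 1665 and 1646 CPM in naive lungs, 1465, 1260.1 and 1435 CPM in cold-ischemia grafts and 944, 663 and 1642 CPM in shock grafts. The 8 mesothelial markers all fell in all grafts, and their sum dropped from 331 to 389 CPM in naive lungs to 54.1 to 135 CPM in grafts. The 12 endothelial markers summed to 5568 to 5801 CPM in naive lungs and 2940.0 to 5225 CPM in grafts. Shock replicate 2 was the lowest library for 10 of the 12 endothelial markers and for 8 of the 12 of smooth muscle and pericytes. The 7 neutrophil markers, of which 6 rose in all grafts, summed to 39.3 to 67.5 CPM in naive lungs and 825 to 2504 CPM in grafts. In all grafts 22.1% of all genes rose and 19.7% fell. The part of these cells in the collagen results was not tested. Of 8 cartilage markers found, Acan, Comp, Matn1, Matn3 and Lect1 had 3 to 52 reads over all 9 libraries, while Sox9, a transcription factor of cartilage and airway epithelium, rose in all grafts (3.93 ± 0.43, adjusted p = 5.7e-05). The 8 markers together summed to 17.9 to 24.2 CPM in naive lungs and 16.6 to 31.3 CPM in grafts, with overlap.

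The genes that act on collagen moved in both directions. Of 19 genes for folding and hydroxylation of the chains, 1 rose and 4 fell in all grafts, with a median log2 fold change of -0.27. With upper-quartile scaling 1 rose and 8 fell, and with library totals only 1 and 13. Of all genes 22.1% rose and 19.7% fell in the main fit. Upper-quartile scaling had 2689 of the 15834 genes higher and 5029 (31.8%) lower, and library totals only 14.6% and 39.6%. Whether the list differs from all genes was not tested. P4ha2, a subunit of prolyl 4-hydroxylase, rose from 29.8, 27.3 and 46.5 CPM in naive lungs to 61.0, 58.4 and 65.6 CPM in cold-ischemia grafts and 54.9, 77.4 and 54.5 CPM in shock grafts (0.84 ± 0.19, adjusted p = 0.0052), with every graft above every naive lung. Lepre1 (-0.82 ± 0.15, adjusted p = 0.0013) and Crtap (-0.74 ± 0.24, adjusted p = 0.028), partners in the prolyl 3-hydroxylase complex, fell, as did Leprel4 (-1.11 ± 0.21, adjusted p = 0.0019) and the chaperone Fkbp10 (-0.72 ± 0.18, adjusted p = 0.0089), which act in lysyl hydroxylation of collagen. Serpinh1, the collagen chaperone of the endoplasmic reticulum, did not pass (-0.33 ± 0.26, adjusted p = 0.33). Of 13 tested genes for processing and crosslinking 2 rose and 3 fell. Lox, a lysyl oxidase that starts collagen crosslinks, had 86.4, 106 and 211 CPM in naive lungs, 314, 378 and 243 CPM in cold-ischemia grafts and 292, 525 and 217 CPM in shock grafts. It rose in all grafts (1.29 ± 0.34, adjusted p = 0.012) and was highest in shock replicate 2, the library lowest in Col1a1, Col1a2 and Col3a1. Loxl4 rose with it (1.65 ± 0.18, adjusted p = 5.4e-05), Loxl3 fell (-0.95 ± 0.21, adjusted p = 0.0040), and so did Pcolce, an enhancer of procollagen C-proteinase (-1.11 ± 0.40, adjusted p = 0.0452), and Pxdn, the peroxidase that crosslinks type IV collagen (-0.77 ± 0.19, adjusted p = 0.0088).

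Proteins that bind or cut collagen split as well. All 8 small proteoglycans of fibrils had values below 0 in all grafts, and Prelp (-0.80 ± 0.20, adjusted p = 0.0087) and Omd (-0.97 ± 0.30, adjusted p = 0.025) fell, with a median of -0.72. Of 11 collagen receptors Gpr56, an adhesion receptor for type III collagen, rose (1.35 ± 0.20, adjusted p = 0.00034) and Itga1, the α chain of a type IV collagen integrin, fell (-0.78 ± 0.28, adjusted p = 0.045). Of 6 collagenases and gelatinases 4 rose, Mmp8 (5.72 ± 0.36, adjusted p = 1.5e-06), Mmp9 (3.55 ± 0.42, adjusted p = 9.4e-05), Mmp13 (3.69 ± 0.32, adjusted p = 1.3e-05) and Mmp14 (0.73 ± 0.26, adjusted p = 0.0450), and the gelatinase Mmp2 fell (-0.96 ± 0.34, adjusted p = 0.043). Mmp8 had 3.26, 2.53 and 4.15 CPM in naive lungs, 94.6, 147 and 173 CPM in cold-ischemia grafts and 287, 256 and 136 CPM in shock grafts, so that every graft was above every naive lung. Neutrophils, whose summed markers are given above, are known to carry Mmp8 and Mmp9. Of 15 other basement membrane genes Lama5 (0.71 ± 0.17, adjusted p = 0.0060) and Lamb3 (0.44 ± 0.14, adjusted p = 0.026), laminin chains of epithelial basement membranes, rose and Nid1, which links laminin to type IV collagen, fell (-0.48 ± 0.17, adjusted p = 0.0475). Of 12 genes of TGF-β signalling, a pathway that induces fibrillar collagen genes, 8 rose and 2 fell in all grafts. Tgfb1 rose (1.06 ± 0.14, adjusted p = 0.00018), as did the nuclear repressor Skil (2.16 ± 0.16, adjusted p = 4.9e-06), and the ligand Tgfb3 (-0.69 ± 0.16, adjusted p = 0.0058) and the inhibitor Smad7 (-1.03 ± 0.22, adjusted p = 0.0034) fell. Among all genes 22.1% rose and 19.7% fell. With upper-quartile scaling 5 genes of the TGF-β list rose and 3 fell, and with library totals only again 5 and 3. The other basement membrane genes split into 1 and 6, then 0 and 7. All genes shifted downward too under these scalings. Of the 15834 genes 2689 rose and 5029 (31.8%) fell with upper-quartile scaling, and 14.6% and 39.6% with library totals only. Without shock replicate 2 the collagenases and gelatinases had 3 rises and 0 falls (edgeR).

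**Figure D5:**
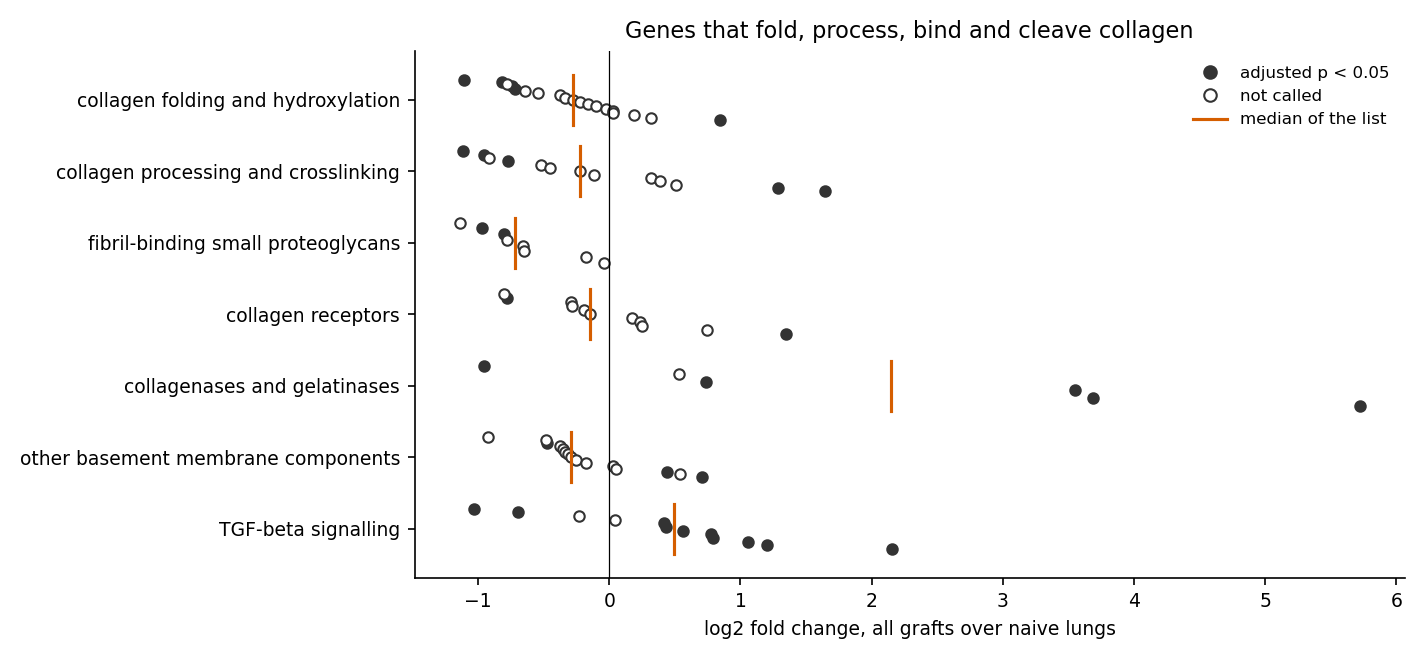
Log2 fold change in all grafts over naive lungs of genes in 7 lists that act on or with collagen, 1 point per tested gene, filled where the adjusted p was under 0.05, with the median of each list in orange. Collagenases and gelatinases reach 5.72 (Mmp8), and no gene of the small proteoglycans lies above 0.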

How the data were processed

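The 9 libraries came in 3 tables, 1 per pair of groups. The submitters' processing notes name mm10 and, with no version or role, STAR, STAR-Fusion, HTSeq, edgeR and DESeq2, and the annotation and strand setting are not given in the sources used here. Per the file headers the authors deposited whole-number counts per gene, normalized counts (a signal equal to the count over 1 size factor per library), FPKM, and the log2 fold change, p-value and adjusted p-value of each comparison. Tables were joined by gene identifier, and the 9 repeated libraries held 0 differing counts. By chi-square over gene counts the 2 most alike libraries of a group differed by 15.0 per degree of freedom, so none repeated another.

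Counts were fitted with edgeR 4.0.16 (R 4.3.3) by the quasi-likelihood test, two-sided, after TMM scaling and filterByExpr, with a mean per group over all 9 libraries and p-values adjusted by Benjamini-Hochberg over the 15834 genes tested. The comparison of all grafts sets the equal mean of both graft groups against naive lungs. DESeq2 1.42.0 was an alternative. The fit was tested on simulated data. Gene coordinates are the deposited ones. A count of 0 allows up to 3 reads, or 0.136 CPM in the naive library of least depth, by counting error alone.

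Members, role classes and the 23 gene lists were chosen with earlier results of these data known; 1 gene of the list of other basement membrane components is not reported here. Named in every sample were 19 fixed members and those with the 6 largest rises and falls called in all grafts at a mean of at least 2 CPM; from other lists, up to 4 with the smallest adjusted p and fixed examples were taken.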

Additional observations from a re-analysis of the deposited data

How the results depend on the processing

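Counts of called collagens moved most with the scaling and the libraries. The 3 lower in all grafts (19.7% of all genes) became 6 with upper-quartile scaling (31.8%) and 12 with library totals only (39.6%). Without both libraries in doubt they were 8 (20.1%). Under the tables without shock replicate 2, an alternative chosen after seeing the data, they were 6 (26.2%). When 1 library was left out they were 0 to 10, with 12.9% to 21.6% of all genes lower. The 8 lower in shock grafts (17.9%) became 15, 19, 15 and 5 under the same settings (29.4%, 36.4%, 19.9% and 23.5%). When 1 library was left out they were 2 to 15, with 11.5% to 19.2% of all genes lower. The 3 higher in cold-ischemia grafts (17.5%) ranged from 1 to 4 on leaving out 1 library, with 12.9% to 19.0% of all genes higher. The 0 lower there (13.1%) became 1 with library totals only (28.9%). Between graft groups the 0 called became 1, a lower gene, without both libraries in doubt (0.187% of all genes lower). Higher and lower collagens in shock grafts numbered 3 and 8 with TMM, 2 and 15 with upper-quartile scaling and 2 and 19 with library totals; these scalings set the median of all genes there at -0.06, -0.28 and -0.40.

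Same-numbered libraries of different groups had correlations of -0.39 to 0.0965 in their deviations from group means by title. Differently numbered ones had -0.36 to 0.32. Deviations cancel within a group of 3, and the group of 2 grafts is in doubt. The check therefore cannot decide whether the numbers pair the libraries. With the replicate block 2 collagens were higher and 4 lower in all grafts (20.4% and 18.2% of all genes). In cold-ischemia grafts these were 3 and 0 (15.7% and 11.4%) and in shock grafts 2 and 11 (20.1% and 16.5%). Between graft groups 0 were called (0.0% of all genes).

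Of 1873 values of 25 named genes under alternatives, 92 lost a call, 82 gained one, 0 changed sign with a call in either setting and 92 changed sign with a call in neither. The alternative values that changed sign were at most 0.87 in absolute size. Genes under 1 CPM rest on few reads, and 3 libraries per group limit every test.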
